A study of Mus musculus with 4 samples.

Results

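Heat shock proteins and DnaJ (J-domain) proteins are the molecular chaperones that hold, fold or refold other proteins. The genes described here are those with a non-control probe whose accession maps to a symbol beginning with Hspa, Hspb, Hspd, Hspe, Hsph, Hsp90, Dnaja, Dnajb or Dnajc followed by a number. Of 88 symbols that fit this rule, 71 had a probe, and these 71 genes with 125 probes were part of 45604 genes and 56605 probes on the array. The 17 symbols without a probe were 16 pseudogenes and Dnajb5. By family the genes were 11 HSP70, 3 HSP110, 3 HSP90, 2 chaperonin, 8 small HSP, 4 DNAJA, 12 DNAJB and 28 DNAJC genes.

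The nasal mucosa of male C57BL/6 mice (C57BL/6J in the strain label), labelled as olfactory epithelium, was compared between young adult mice of 8 weeks (2 months in the methods) and aged mice of 16 months. Each age had 2 arrays, and each array carried RNA pooled from 5 mice, so that the spread between arrays is a spread between pools or between hybridizations and not between mice. Fewer mice per age are counted in the methods than separate pools would need, and it is not stated whether one mouse could be in both pools of its age. A note on silica and lung in the labels matches neither the titles nor the methods and was set aside.

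Chaperones work in teams. An HSP70 protein grips an unfolded stretch of its client, a J-domain protein delivers the client and triggers ATP hydrolysis, and an HSP110 protein exchanges the nucleotide so that the client is let go. HSP90 proteins act later on clients such as kinases and steroid receptors, chaperonins enclose their clients in a chamber, and small HSPs hold clients without using ATP. Each compartment has its own members, and the stress-inducible ones are switched on by heat shock factor HSF1. In the olfactory mucosa these genes serve olfactory receptor neurons (ORNs), which are exposed to inhaled air and renewed throughout life, as well as supporting cells, glands and the lamina propria.

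The level of a gene is given as its normalized probe intensity on each array, which is not comparable between genes, and a log2 difference is always aged minus young adult. Of the 71 genes, 65 had a mean level of at least 100 and 62 had every probe well above background on all 4 arrays. Hspb3, Dnajb7 and Dnajc22 were well above background on no array. Between replicate arrays the chaperone genes differed by a median of 0.08 log2 units among the young adult and 0.05 among the aged arrays. Well above background were 68.1% and 76.8% of the spots in young adult and 63.1% and 72.7% in aged samples.

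The chaperone genes as a whole were close to level between the ages. A gene was called when limma gave P below 0.05 and a false discovery rate (FDR, Benjamini-Hochberg over all 45604 genes) below 0.25. One gene passed, Dnaja3, which was higher in the aged mucosa: 1 of 71 genes was called higher, where 1.65% of all genes were. None was called lower, where 2.33% of all genes were. At an unadjusted P below 0.05, 6 of the 71 chaperone genes were higher, beside 6.05% of all genes. At the same limit 4 of the 71 were lower, beside 7.08% of all genes. The number called moved widely with the processing: with an intensity trend in eBayes it was 12 higher and 6 lower (3612 and 3518 over all genes). With any array left out, the fit called 0 of all 45604 genes.

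Direction was mixed as well. The log2 difference was above 0 for 39 genes and below 0 for 32, with a median of 0.03, beside 0.01 over all genes. Both aged arrays lay above both young adult arrays for 25 of the 71 chaperone genes, beside 24.2% of all genes. They lay below both for 17 of the 71, beside 21.8% of all genes. In either direction the arrays were apart for 59.2% of the chaperone genes and 46.0% of all genes. At a level of at least 100 these shares were 60% and 57.8%. The median absolute log2 difference was 0.11 over the 65 chaperone genes with a level of at least 100 and 0.13 over all 25513 genes at such levels. Differences of more than 1.2-fold were seen in 15.4% of the former and 22.3% of the latter.

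**Figure D1:**
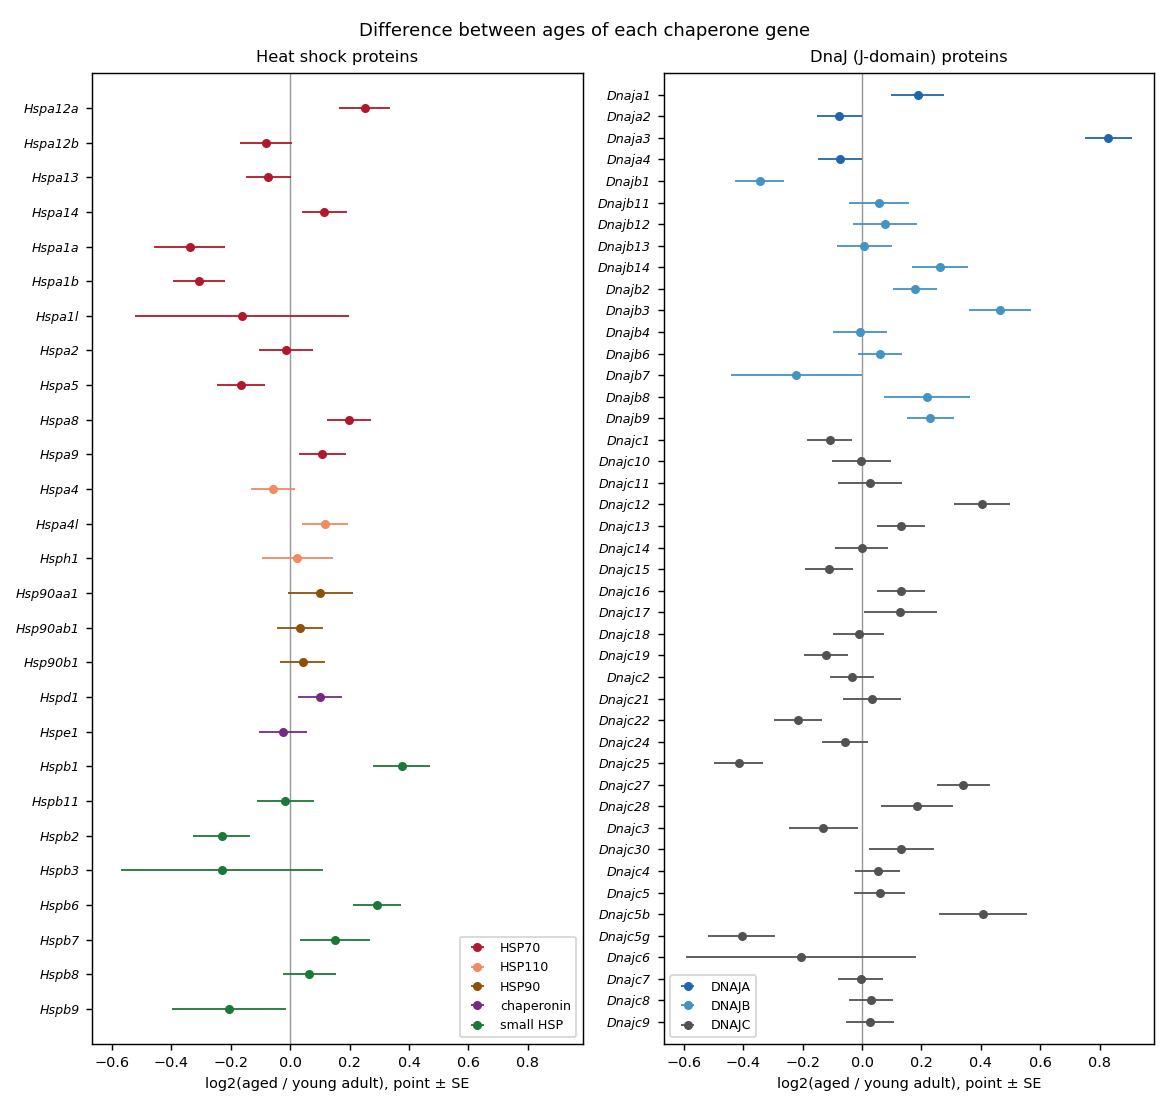
Log2 difference between aged and young adult mucosa (x axis, point ± SE from limma, 4 arrays) of each of the 71 chaperone genes, heat shock proteins on the left and DnaJ proteins on the right, coloured by family. Most points lie within 0.2 of the 0 line, Dnaja3 stands at 0.83, and the wide bars belong to dim genes such as Hspa1l and Hspb3 or to Dnajc6.

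The inducible cytosolic pair of HSP70 and its J-domain partner lay on the lower side in aged mucosa. Hspa1a and Hspa1b encode the stress-inducible HSP70 and are nearly identical neighbouring genes, so that their probes cannot be taken as separate readings. Hspa1a had levels of 4468 and 4964 in young adult and 3478 and 3987 in aged mucosa. Hspa1b had levels of 3296 and 3038 in young adult and 2524 and 2594 in aged mucosa. The aged arrays lay below the young adult arrays for both genes. The log2 differences were -0.34 (SE 0.12, FDR 0.398) for Hspa1a and -0.31 (SE 0.088, FDR 0.334) for Hspa1b, and neither was called. Dnajb1, the inducible HSP40 that feeds clients to HSP70, had levels of 16098 and 16594 in young adult and 13270 and 12492 in aged mucosa. Its groups did not overlap either, with a log2 difference of -0.34 (SE 0.083, FDR 0.292).

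The small HSP Hspb1 lay on the other side. Hspb1 (HSP27), which binds unfolding proteins and actin filaments, had levels of 36991 and 33190 in young adult and 46080 and 44871 in aged mucosa. All aged values were above the young adult ones, and the log2 difference was 0.38 (SE 0.096, FDR 0.307), which did not pass the FDR limit. Hspb6 (HSP20), a small HSP of muscle and other tissues, had levels of 608 and 578 against 714 and 737, a log2 difference of 0.29 (SE 0.081, FDR 0.325). Cryab, a small HSP whose symbol falls outside the rule, lay lower instead. Its levels were 7549 and 7635 against 6830 and 6160, a log2 difference of -0.23 (FDR 0.447) with arrays apart. On the slide that held young adult 1 and aged 1, the log2 differences were -0.36 for Hspa1a, -0.39 for Hspa1b, -0.28 for Dnajb1, 0.32 for Hspb1 and 0.23 for Hspb6. The stress-inducible genes did not share a direction. Hsph1, Hsp90aa1, Hspd1 and Hspe1, described below, had log2 differences of 0.02, 0.10, 0.10 and -0.02. Of these, only Hspd1 had arrays apart, with the aged arrays above.

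**Figure D2:**
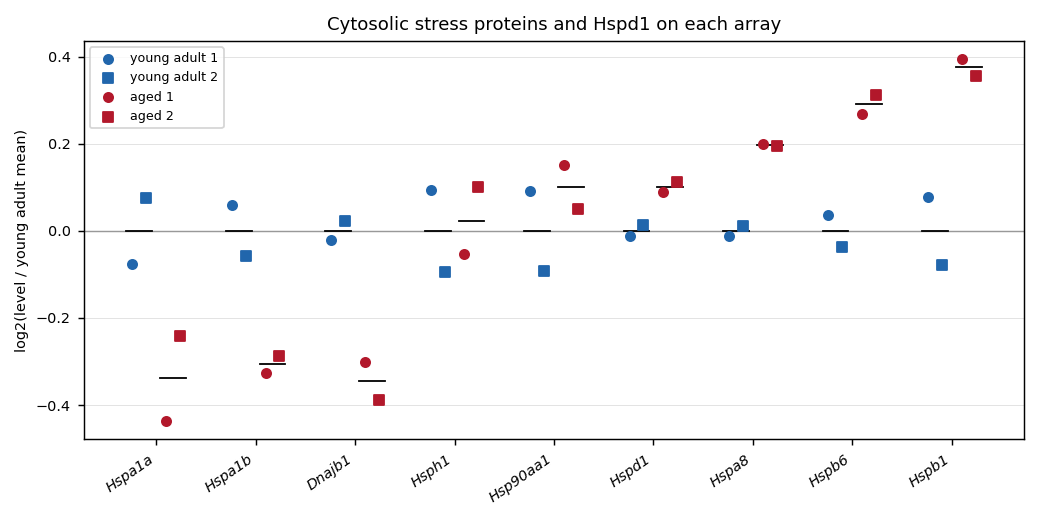
Level of 9 chaperone genes on each array (y axis, log2 of the level over the young adult mean of the gene; blue young adult, red aged, circles replicate 1, squares replicate 2, bars group means). Hspa1a, Hspa1b and Dnajb1 lie below 0 on both aged arrays and Hspa8, Hspb6 and Hspb1 above it, and the arrays of Hsph1 and Hsp90aa1 overlap between the ages.

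Promoters of these genes are shown because HSF1 binds a heat shock element, made of alternating GAA and TTC triplets with 2 bases between them. RefSeq promoter windows (GRCm38.p6, 250 bases before to 50 after an annotated start) were found for 57 of the 71 genes. A full element of 3 triplets (GAA, any 2 bases, TTC, any 2 bases, GAA, or the same on the other strand) was present for 4 of these 57 genes (7.02%): Hspd1, Hspe1, Hsph1 and Dnajb6. Over all genes with a window it was present for 179 of 27025 (0.662%), and over all windows for 198 of 32851 (0.603%). A pair of triplets (GAA, any 2 bases, TTC, or TTC, any 2 bases, GAA) occurred for 16 of the 57 genes (28.1%) and for 17% of all genes with a window. Each full element contains 2 such overlapping pairs.

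Below are the 150 bases before the start, written 5′ to 3′ on the strand of the gene, with triplet pairs and the bases inside them in capitals. Hspa1a lies at chr17:34972157-34972306 and Hspa1b at chr17:34959239-34959388, both on the minus strand. On the plus strand are Hspb1 at chr5:135887769-135887918, Hspe1 at chr1:55087998-55088147, Dnajb6 at chr5:29735748-29735897 and Dnaja3, the called gene, at chr16:4683920-4684069.
Hspa1a: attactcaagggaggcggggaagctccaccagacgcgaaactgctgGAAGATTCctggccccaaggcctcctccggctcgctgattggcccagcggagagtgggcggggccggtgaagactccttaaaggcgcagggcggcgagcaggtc
Hspa1b: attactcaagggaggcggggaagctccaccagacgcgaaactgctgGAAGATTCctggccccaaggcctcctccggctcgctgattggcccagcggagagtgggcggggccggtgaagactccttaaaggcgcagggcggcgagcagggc
Hspb1: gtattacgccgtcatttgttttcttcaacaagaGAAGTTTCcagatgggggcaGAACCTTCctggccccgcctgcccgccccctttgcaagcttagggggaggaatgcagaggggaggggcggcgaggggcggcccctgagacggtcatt
Hspe1: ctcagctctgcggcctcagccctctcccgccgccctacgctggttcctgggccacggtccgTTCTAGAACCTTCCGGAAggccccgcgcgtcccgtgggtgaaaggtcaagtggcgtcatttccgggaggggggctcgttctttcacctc
Dnajb6: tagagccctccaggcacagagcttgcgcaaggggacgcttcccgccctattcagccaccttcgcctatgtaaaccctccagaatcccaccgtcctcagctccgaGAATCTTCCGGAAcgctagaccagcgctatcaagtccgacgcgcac
Dnaja3: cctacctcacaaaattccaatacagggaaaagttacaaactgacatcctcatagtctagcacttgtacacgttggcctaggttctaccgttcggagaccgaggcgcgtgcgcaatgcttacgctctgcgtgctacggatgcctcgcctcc

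The Hspa1a and Hspa1b stretches are identical at 149 of 150 positions, each with 1 pair whose first base lies 104 bases before the start. Hspb1 has 2 separate pairs, 117 and 97 bases before its start. Hspe1 and Hspd1 are transcribed away from each other from starts 216 bases apart, and the run of 18 capital bases in the Hspe1 stretch is the only match in the Hspd1 window too. The windows of Dnaja3 and Dnajb1 held no match to either pattern. The 4 genes with a full element, of which Hspd1 and Hspe1 share the same run, had log2 differences from -0.02 to 0.10. The search allowed no mismatch in a triplet, and only 8 of the 11 HSP70 and 1 of the 3 HSP90 genes had a window. Any link between these elements and the differences between the ages was not tested. A match in letters is a description and no evidence of binding.

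The constitutive cytosolic HSP70, Hspa8 (HSC70), which also strips clathrin coats from vesicles, had levels of 28286 and 28757 in young adult and 32742 and 32660 in aged mucosa. The aged values were all above the young adult values, and its 4 probes lay between 0.17 and 0.23. Its log2 difference was 0.20 (SE 0.074, FDR 0.416). Hspa8 and the inducible Hspa1a and Hspa1b therefore lay on opposite sides of 0. Hspa12a, an atypical HSP70, had levels of 2409 and 2224 against 2767 and 2743, a log2 difference of 0.25 (FDR 0.388).

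Among organelle HSP70s, Hspa5 (BiP) of the endoplasmic reticulum had levels of 14274 and 14242 in young adult and 13124 and 12311 in aged mucosa. This log2 difference of -0.17 (SE 0.082, FDR 0.511) came with arrays that did not overlap. Mitochondrial Hspa9 (mortalin) had levels of 4735 and 4799 against 5282 and 5001, a log2 difference of 0.11 (FDR 0.630). The remaining HSP70 genes had log2 differences of 0.11 for Hspa14, -0.02 for Hspa2, -0.07 for Hspa13 and -0.08 for Hspa12b. Hspa1l, mainly a testis gene, was well above background on 1 array of each age, at levels of 42.9 and 65.0 in young adult and 37.1 and 59.9 in aged mucosa, so that its arrays overlapped. The median over the 11 HSP70 genes was -0.07.

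HSP110, HSP90 and chaperonin genes had small log2 differences, from -0.06 (Hspa4) to 0.12 (Hspa4l). Of the HSP110 exchange factors, Hsph1 (HSP105) had levels of 904 and 793 in young adult and 816 and 909 in aged mucosa, which overlap (log2 difference 0.02). Hspa4 and Hspa4l had arrays that did not overlap, in opposite directions. Hsp90aa1, the inducible cytosolic HSP90, had levels of 20901 and 18424 against 21801 and 20314, a log2 difference of 0.10 with a 95% confidence interval of -0.22 to 0.43. For the constitutive Hsp90ab1, the levels were 99343 and 98756 against 99330 and 103480. That gave a log2 difference of 0.03 and an interval of -0.20 to 0.26. Hsp90b1 (GRP94), the HSP90 of the endoplasmic reticulum, had a log2 difference of 0.04 (interval -0.19 to 0.27).

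The mitochondrial chaperonin ring Hspd1 (HSP60) had levels of 5696 and 5797 in young adult and 6118 and 6207 in aged mucosa, a log2 difference of 0.10 (interval -0.12 to 0.32). Its lid Hspe1 (HSP10), from the shared promoter above, had levels of 4384 and 4655 against 4433 and 4457. The Hspe1 arrays overlapped, with a log2 difference of -0.02 (interval -0.26 to 0.22). For Hspd1 the aged arrays lay above the young adult arrays. The intervals of all these genes include 0 and also differences of more than 0.2 in at least one direction.

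The other small HSPs showed no common direction. Hspb2, a muscle small HSP, had levels of 616 and 688 in young adult and 562 and 547 in aged mucosa, a log2 difference of -0.23 (FDR 0.454) with arrays apart. Hspb8, the partner of the cochaperone Bag3 in chaperone-assisted autophagy, overlapped between the ages, with a log2 difference of 0.06. Hspb7, a small HSP of heart muscle, had one of 0.15 and Hspb11, also a subunit of intraflagellar transport, one of -0.02. The 2 probes of Hspb11 went opposite ways. The brighter fell from 1796 and 1894 to 1660 and 1507 (log2 difference -0.22), and the dim probe gave 0.19. Hspb9, a testis gene, had levels of 127 and 175 against 128 and 130, so that its difference of -0.21 came from one young adult array. Hspb3 was not well above background and has no firm level. The median over the 8 small HSP genes was 0.02.

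Dnaja3 (Tid1), the J-domain partner of Hspa9 in the mitochondrial matrix, rose in aged mucosa and was the only chaperone gene called. Its level was 747 and 740.4 in young adult and 1286 and 1359 in aged mucosa, so that the groups lay far apart. The log2 difference was 0.83 (SE 0.080, FDR 0.183, limma), or 1.78-fold. With a mean level over 100 and a fold above 1.5 it counted as a differentially expressed gene (DEG) by the limits of the study's methods. This fold rests on averaging its probes on the log2 scale, and the methods name no scale for that average. Within the slide shared by both ages the log2 difference was 0.78. The difference was not of one size over its 2 probes. The probe for NM_001135112 had intensities of 111 and 115 in young adult and 272 and 323 in aged mucosa, a log2 difference of 1.39 (SE 0.12, FDR 0.169). The brighter probe, for NM_023646, had intensities of 5026 and 4761 against 6088 and 5717, one of 0.27 (SE 0.087, FDR 0.357), which was not called. With the brighter probe standing for the gene, Dnaja3 was thus not called (log2 difference 0.27, FDR 0.354). With any array left out, the log2 difference was 0.79 to 0.87. No gene of the 45604 was called in those fits, so that the loss of the Dnaja3 call there (FDR 0.438 without young adult 1, 0.457 without young adult 2, 0.683 without aged 1 and 0.404 without aged 2) says nothing about this gene in particular.

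The remaining DNAJA genes are cytosolic partners of HSP70. Dnaja1 had levels of 807 and 846 in young adult and 906 and 976 in aged mucosa, a log2 difference of 0.19 (FDR 0.497). Its brightest probe alone gave -0.02. Dnaja2 (-0.08) and Dnaja4 (-0.07) had aged arrays slightly below the young adult arrays. The brighter Dnaja4 probe alone gave -0.17 and the dimmer probe 0.02.

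When each probe was tested by itself, 3 of 125 chaperone probes were called higher, beside 1.84% of all probes, and 1 lower, beside 2.65% of all probes. One of the 3 was the Dnaja3 probe above. Another was a probe of Dnajb6, a J-domain protein that suppresses aggregation of polyglutamine proteins. Its intensities were 4506 and 4468 in young adult and 6662 and 6347 in aged mucosa, a log2 difference of 0.54 (SE 0.079, FDR 0.201) on the accession NM_001037940. The other 4 Dnajb6 probes, for NM_001037941 and NM_011847, had log2 differences from -0.23 to 0.08, so that the gene mean of 0.06 (FDR 0.767) shows nothing of this probe. Of the 34 chaperone genes with more than 1 probe, 12 had probes of opposite sign.

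**Figure D3:**
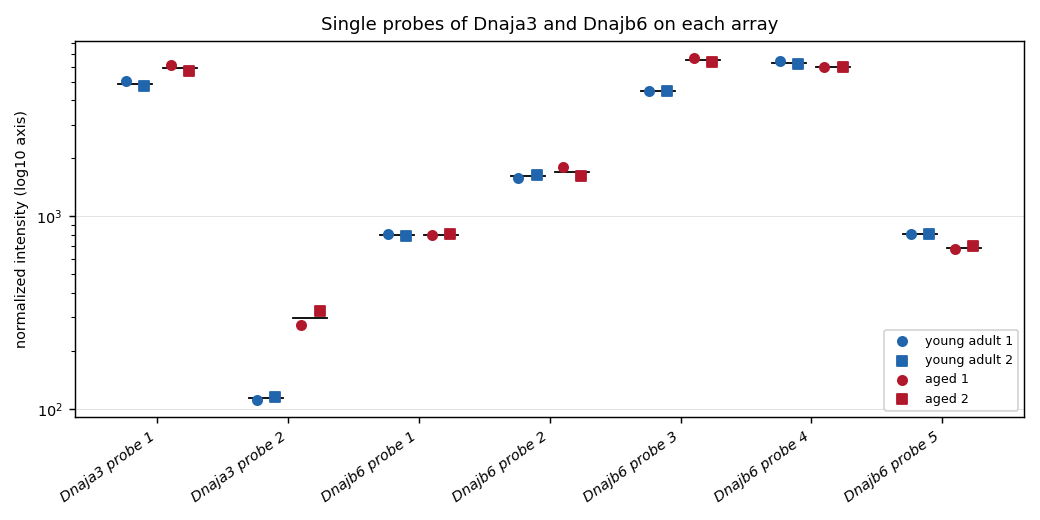
Normalized intensity (y axis, log10 scale) of the 2 probes of Dnaja3 and the 5 probes of Dnajb6 on each array (blue young adult, red aged, circles replicate 1, squares replicate 2, bars group means). Dnaja3 probe 2 stands at 111 and 115 in young adult against 272 and 323 in aged mucosa and Dnajb6 probe 3 at 4506 and 4468 against 6662 and 6347, while the other probes of both genes differ by less.

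Of the other cytosolic DNAJB genes, Dnajb2 (HSJ1), a neuronal J-domain protein that passes ubiquitylated clients to the proteasome, had levels of 2383 and 2416 in young adult and 2693 and 2734 in aged mucosa. Its arrays did not overlap, with a log2 difference of 0.18 (FDR 0.453). Dnajb3, best known from testis, had levels of 559 and 489.7 against 719.8 and 724, which is the largest log2 difference among uncalled DNAJ genes with a level of at least 100, at 0.47 (SE 0.10, FDR 0.278). Dnajb13, a component of the radial spoke of motile cilia and sperm tails, overlapped between the ages at a log2 difference of 0.01. The median over the 12 DNAJB genes was 0.07.

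J-domain proteins of the endoplasmic reticulum, which work with Hspa5, did not share a direction. Dnajb9 (ERdj4) had levels of 1524 and 1449.8 in young adult and 1760.2 and 1725 in aged mucosa, a log2 difference of 0.23 (SE 0.079, FDR 0.392), with the aged arrays above. Dnajb11 (ERdj3, 0.06), Dnajc10 (the disulfide reductase ERdj5, 0.00) and Dnajc3 (p58IPK, which also restrains the kinase PERK, -0.13) all had arrays that overlapped. The positive value of Dnajb11 came from a probe well above background on no array, and both of its bright probes gave -0.09. Dnajc1 (ERdj1), a membrane protein near the ribosome, had levels of 3718 and 3609 against 3354 and 3436, a log2 difference of -0.11 (FDR 0.616).

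Among DNAJC genes with a set task, Dnajc5 (cysteine string protein), which guards synaptic vesicle fusion proteins, had overlapping arrays and a log2 difference of 0.06. Dnajc6 (auxilin), which brings Hspa8 to clathrin-coated vesicles in neurons, had levels of 207 and 106 in young adult and 119.8 and 137 in aged mucosa. Its young adult arrays differed by more than the ages did. Dnajc19, part of the motor that pulls proteins into mitochondria, had levels of 3139 and 3105 against 2844 and 2892, a log2 difference of -0.12 (FDR 0.577). Dnajc15, its relative in the inner membrane, had levels of 8898 and 8824 against 7970.4 and 8441, a log2 difference of -0.11 (FDR 0.624). Both had aged arrays below the young adult arrays, and for Dnajc15 arrays apart were a condition of being named.

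The largest differences among other DNAJC genes ran in both directions. Dnajc25, a membrane protein with a J domain, had levels of 1523 and 1440.4 in young adult and 1087 and 1134 in aged mucosa. This was the largest negative log2 difference of all chaperone genes, -0.42 (SE 0.083, FDR 0.258), just above the FDR limit. Dnajc12, a cochaperone for the folding of aromatic amino acid hydroxylases such as tyrosine hydroxylase, had levels of 1835 and 1928 against 2613 and 2372, a log2 difference of 0.40 (SE 0.095, FDR 0.290). Dnajc27, a small GTPase with a J domain, had levels of 226 and 211 against 286 and 268, a log2 difference of 0.34 (SE 0.090, FDR 0.312). Arrays apart were a condition for naming these 3 genes, so that their groups could not overlap. As single probes, the one of Dnajc25 (FDR 0.249) and one of the 3 of Dnajc27 (log2 difference 0.42, FDR 0.238) were called. The dim gene Dnajc5g was not well above background on either aged array, at levels of 44.9 and 43.7 in young adult and 31.0 and 36.1 in aged mucosa; of the young adult arrays 1 was well above background, so that no fold is given (FDR 0.326). Dnajc5b was dim as well, at levels of 26.9 and 33.7 against 40.9 and 39.0. The 19 remaining DNAJ genes with a level of at least 100 had log2 differences from -0.06 to 0.26 (Dnajb14). Their aged arrays lay above for 6, below for 2 and overlapped for 11. Of all 25513 genes at such levels, they lay above for 8016 and below for 6731. None of the 19 had an unadjusted P below 0.05 in limma, which partly follows from naming the largest differences apart from them. The median over the 28 DNAJC genes was 0.01.

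Helpers of these chaperones were described from 6 lists. Of 32 heat shock factors and cochaperones, 23 lay higher and 9 lower in aged mucosa, with a median log2 difference of 0.05. In each direction 1 was called, where 1.65% of all genes were called higher and 2.33% lower. Fkbp5, an HSP90 cochaperone of steroid receptors and itself induced by glucocorticoids, rose from 896 and 847 to 1532 and 1508 (log2 difference 0.80, SE 0.080, FDR 0.185). Serpinh1 (HSP47), the collagen chaperone of the endoplasmic reticulum, fell from 3899.9 and 4242 to 2398 and 2489 (log2 difference -0.74, SE 0.090, FDR 0.196). These changes were each larger than that of any HSP70, HSP90 or small HSP gene.

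In the endoplasmic reticulum, 8 of 28 folding and unfolded protein response genes lay higher and 20 lower, with a median of -0.05. The limma calls were 0 higher and 2 lower, beside 1.65% and 2.33% of all genes. At an unadjusted P below 0.05 they were 2 and 3, beside 6.05% and 7.08% of all genes. Edem1 and Derl3, both of the pathway that clears misfolded proteins from this compartment, fell with log2 differences of -0.56 (885 and 924 to 602 and 623; FDR 0.208) and -0.54 (6024 and 6285 to 4256 and 4200.2; FDR 0.209). Of the TRiC chaperonin and prefoldin genes, 9 of 14 lay higher with a median of 0.02; none was called by limma and 0 had an unadjusted P below 0.05. Of mitochondrial folding and protease genes, 9 of 11 lay higher with a median of 0.07, again with 0 called and 0 at an unadjusted P below 0.05.

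In the stress and temperature response list, 1 of the 10 genes lay higher and 9 lower, with a median of -0.17. Over all genes, 1.65% were called higher and 2.33% lower. Calls were made for the immediate early factors Atf3, which fell from 1834 and 1951 to 1076 and 1133 (log2 difference -0.78, FDR 0.188), and Egr1, which fell from 11724 and 11836 to 8459 and 9025 (log2 difference -0.43, FDR 0.249). Immediate early genes are known to respond quickly to stimuli, handling and tissue removal among them. These lay on the same side as Hspa1a, Hspa1b and Dnajb1, and their part in those differences was not tested. Of 15 circadian clock genes, 11 lay higher and 4 lower with a median of 0.05. The repressor Nr1d1 (REV-ERBα) fell from 2132 and 2236 to 1488 and 1463 (log2 difference -0.56, FDR 0.208). The hour of tissue removal is not stated in the sources used here.

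**Figure D4:**
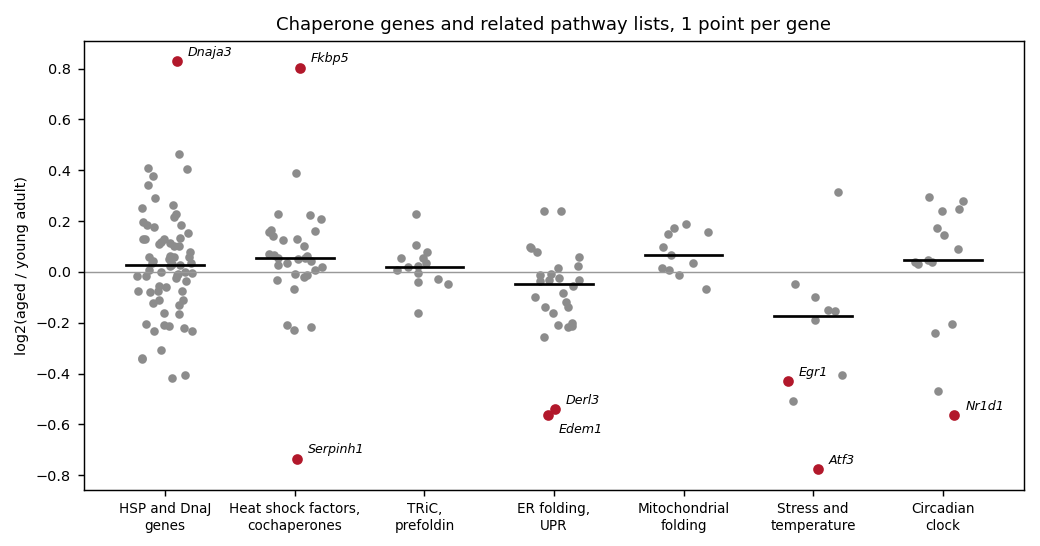
Log2 difference between aged and young adult mucosa (y axis) of the chaperone genes and of 6 lists of related genes, 1 point per gene, with black bars at the medians and called genes in red with their names (horizontal scatter within a list is arbitrary). Medians lie between -0.05 and 0.07 except for the stress and temperature list at -0.17.

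The tissue holds several cell types, and in bulk RNA fewer cells of a type and less RNA per cell cannot be told apart. In its histology, the study counted fewer OMP-positive mature and GAP43-positive immature ORNs in the septal epithelium of aged mice. Those counts came from mice kept for histology, and how the marker levels relate to them was not tested. Of 13 markers of mature ORNs all 13 were measured at levels of at least 100 and lay higher in aged mucosa (median 0.22, 1 called), with summed levels of 639600 and 630130 in young adult and 703040 and 709740 in aged mucosa. Markers of the olfactory epithelium named in the label were thus present, while markers of the lamina propria, given below, were measured as well. Of 7 markers of immature ORNs, 1 lay higher and 6 lower (median -0.25, summed levels 50333 to 52129 against 42987 to 44312). For 5 markers of sustentacular cells the counts were 4 higher and 1 lower (median 0.16, 1 called, 331630 to 344130 against 363980 to 368180). Of 11 markers of motile ciliated cells, 3 lay higher and 8 lower (median -0.11, 35125 to 35575 against 32802 to 32812). Beside the calls in these lists, 1.65% of all genes were called higher.

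Of all marker lists, those of fibroblasts and macrophages had the largest median differences. Over all genes, 1.65% were called higher and 2.33% lower. Fibroblast markers lay lower for 7 of 8 genes (median -0.87, 5 called lower, summed levels 228780 to 253500 against 120720 to 128840). Macrophage markers lay lower for 8 of 8 (median -0.41, 3 called, 10711 to 11166 against 8481 to 8489), and smooth muscle and pericyte markers for 9 of 10 (median -0.26, 3 called, 67381 to 68852 against 64775 to 66078). Serpinh1 is expressed by collagen-producing cells and moved with the fibroblast markers. Striated muscle markers lay lower for 11 of 14 (median -0.21), but the slow myosin Myh7 rose (log2 difference 1.31, FDR 0.168), with summed levels of 3919.5 to 4244 against 4222 to 4429. One striated muscle and one ciliated cell marker were well above background on no array. Hspb2, Hspb6 and Hspb7 are muscle genes too. The part of these cell types in the chaperone values was not tested.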

How the data were processed

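Pooled RNA of the nasal mucosa of mice aged 8 weeks (young adult) or 16 months (aged) was hybridized to 4 one-color Agilent arrays, 2 per age. The authors deposited, per array and spot, the median intensity, the median intensity of the local background and quality flags from Feature Extraction 11.0.1.1, with no normalization between arrays; probe identifiers, flags and header entries were other columns deposited with them. The processed intensity was used only for alternatives, and the table of the whole series was not used.

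The background was removed with normexp (offset 0), fitted on all 62976 spots in limma 3.58.1 under R 4.3.3. Control spots and 88 to 118 flagged spots per array were removed, spots of a probe averaged, and the log2 values quantile normalized and averaged over the probes of a gene. Quantile normalization, averaging and the thresholds follow the study's methods, which name no scale for the average over probes. No spot was saturated. Accessions matched a RefSeq table (GRCm38.p6) for 32994 of 56605 probes.

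Ages were compared with lmFit and eBayes, two-sided, without covariates, over all 4 arrays, with 2 residual and 1.38 prior degrees of freedom. P-values measure only the spread between these pools, and an exact permutation test of 2 against 2 arrays cannot go below 0.333. Calls needed P below 0.05 with FDR below 0.25, and a called gene was a DEG if its mean level was at least 100 and its fold at least 1.5. Single probes were tested the same way over 56593 probes, an analysis added after the data had been seen, as was the search for triplet pairs. The script for the fit was tested on simulated data. The number of arrays limits precision. Young adult 1 and aged 1 shared a slide; the other two arrays came from 2 further slides.

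The genes named were the called genes, all heat shock proteins, DnaJ proteins with well-described roles, the 3 largest positive and 3 largest negative differences among other DnaJ genes with a mean level of at least 100 and arrays apart, and called genes of the lists. Ero1a and Ero1b were matched through older symbols, and the ciliated marker Ccdc40 had no matched probe. The members and lists were chosen with earlier results of these data known. Alternatives changed the background correction, the signal, the normalization, the filters, the choice of probe, the spread estimate, the replicate block, the slide and the arrays included.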

Additional observations from a re-analysis of the deposited data

How the results depend on the processing

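The number of genes called depended on the processing. Higher and lower counts over all genes, 754 and 1063 as reported, were 2107 and 2475 with an offset of 50. They were 1788 and 2239 without background correction, and 2029 and 2343 with the processed signal and quantile normalization. Cyclic loess gave 954 and 1378, the brightest probe 1004 and 1411, and the trend 3612 and 3518. Probes above background gave 3578 and 3671 of 29495 genes, and single probes 1044 and 1501 of 56593. The counts for the 71 chaperone genes follow. Higher and lower counts, 1 and 0 as reported, were 6 and 3 with an offset of 50 and also without background correction, 5 and 1 with the processed signal and quantile normalization, 1 and 2 with cyclic loess, 11 and 5 with probes above background only, 0 and 1 with the brightest probe per gene, 12 and 6 with an intensity trend in eBayes, and 3 and 1 with each probe on its own. They were 0 and 0 at an FDR below 0.05 and when any array was left out (range 0 to 0), where the lone array of an age is assumed to vary like the others. These zeros say nothing about the chaperone genes, since the lowest FDR over all genes was 0.0945 as reported and 0.404 to 0.683 with an array left out. The deviations of young adult 1 and aged 1 from their group means correlated at -0.078. With 2 arrays per age, the other same-numbered pair gives the same value by construction. This value gives no sign that equal numbers pair the arrays, though young adult 1 and aged 1 share a slide. With the replicate block, counts were 0 and 0 and the lowest FDR over all genes was 0.433. The slide as a random block could not be fitted, since limma gave a within-slide correlation for 0 of the 71 genes. Among the alternatives with more calls, Hspb1, Hspb6, Dnajb1, Dnajc12 and Dnajb3 were called with the same sign with an offset of 50, without background correction, with the processed signal and quantile normalization, with probes above background only and with the trend. Dnajc25 was called lower with an offset of 50, without background correction and with cyclic loess. It was also called lower with probes above background only, with the brightest probe and with the trend. Dnaja3 lost its call with the brightest probe (0.27), under the replicate block (0.83) and with any array left out (0.79 to 0.87). The median over the chaperone genes was 0.00985 to 0.0604 with an array left out, the highest without young adult replicate 1, and 0.0161 on the slide that holds both ages.

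The following genes changed sign. With an offset of 50, Dnajb11 was -0.0111. Without background correction Dnajc10 was 0.00189, and with scaling to the 75th percentile 0.00971. With the processed signal and quantile normalization, Hspa1l was 0.0499, Hsp90ab1 -0.00473, Hspb11 0.0556, Hspb3 0.20 and Dnajb13 -0.0451. With the processed signal scaled to the 75th percentile, Hspa1l was 0.0036, Hspe1 0.0182, Hspb11 0.0374, Hspb3 0.23 and Dnajb13 -0.047. Dnajb13 was -0.00773 with cyclic loess and Dnajb11 -0.0882 with probes above background only. With the brightest probe, Dnaja1 was -0.0207, Dnajb11 -0.0887, Dnajb6 -0.0813 and Dnajc10 0.0496. On the one slide alone, Hsph1 was -0.15, Hsp90ab1 -0.000196, Hspe1 0.0161, Hspb9 0.00716 and Dnajc10 0.0277. The cause of these changes was not tested. With each array left out in turn, ranges that cross 0 were -0.0834 to 0.0531 for Hspa2, -0.0977 to 0.0637 for Hspb11, -0.55 to 0.0852 for Hspb3, -0.0173 to 0.13 for Dnajb11, -0.0773 to 0.0732 for Dnajc10, -0.69 to 0.28 for Dnajc6, -0.51 to 0.18 for Hspa1l, -0.0705 to 0.12 for Hsph1, -0.0667 to 0.0199 for Hspe1, -0.44 to 0.0231 for Hspb9, -0.0564 to 0.0711 for Dnajb13. In 666 comparisons of a named gene with an alternative the sign, and the call where the alternative had a test, did not change, and in 53 it gained a call.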
